A study of Mus musculus and Rattus norvegicus with 2 samples.

Results

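The RNAs described here are the C/D box small nucleolar RNA (snoRNA) families listed in caput epididymal sperm of mouse and rat, apart from SNORD58 and the families hosted by Gas5 and Snhg1. Members were taken by name: every sequence whose matched entry was an Rfam family starting with SNORD, without those exclusions. This gave 64 of 79 SNORD families, and 64 of 347 Rfam families in all. They held 7016 of 914516 distinct mouse sequences and 2402 of 650877 distinct rat sequences. The mouse library came from 2-month-old C57BL/6 mice and the rat library from young adult Sprague Dawley rats of 450 g. Both were made from purified sperm of the caput, the head of the epididymis, with no treatment named in the labels, and the labels give a selected fraction of 18 to 45 nt. There was 1 library per species, so no difference below has a replicate check and none was tested. How many animals were pooled is not given in the sources used here, and species, strain, age and library cannot be told apart.

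C/D box snoRNAs are short, mostly intron-encoded RNAs that guide 2′-O-methylation of ribosomal RNA and of some other RNAs. Each carries a C box near its 5′ end and a D box near its 3′ end. The boxes are brought together and bound by a protein core that includes fibrillarin, the methyltransferase. Exonucleases trim the excised intron up to this particle, so the mature ends lie a few bases outside the boxes. Copies of the boxes inside the molecule, called C′ and D′, bind a further set of the same proteins. Shorter RNAs cut from snoRNAs have been described in many tissues.

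Most of the leading sequences show this architecture in whole or in part. The most abundant sequence of the 5 leading families of each library is printed below, 5′ to 3′, because these families held 56.3% of the mouse and 67.3% of the rat reads of the set. Capitals mark the C box letters TGATGA and the D box letters CTGA wherever they occurred, and the run CTGATGA arises where both overlap. Mouse sequences come first.
mouse SNORD41: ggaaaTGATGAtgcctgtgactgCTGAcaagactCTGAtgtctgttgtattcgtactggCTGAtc
mouse SNORD18: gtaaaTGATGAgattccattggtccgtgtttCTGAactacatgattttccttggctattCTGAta
mouse SNORD66: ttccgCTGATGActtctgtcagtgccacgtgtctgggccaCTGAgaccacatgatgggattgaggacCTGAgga
mouse SNORD52: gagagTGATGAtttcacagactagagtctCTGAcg
mouse SNORD101: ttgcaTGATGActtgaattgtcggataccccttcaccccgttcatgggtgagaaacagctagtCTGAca
rat SNORD15: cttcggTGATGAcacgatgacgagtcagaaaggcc
rat SNORD97: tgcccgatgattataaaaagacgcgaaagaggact
rat SNORD49: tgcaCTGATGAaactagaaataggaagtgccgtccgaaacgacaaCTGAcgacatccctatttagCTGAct
rat SNORD57: ggagaTGATGAaCTGActcaacCTGAcct
rat SNORD88: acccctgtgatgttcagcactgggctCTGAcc

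In mouse, 4 of the 5 printed sequences ran from the C box to the D box over 65 to 74 nt, longer than the selected fraction. The 35-nt SNORD52 form stopped after an inner CTGA. In rat, only the 71-nt SNORD49 form spanned the molecule, and the others were 29 to 35 nt long. None of these 10 sequences had an identical read in the other library.

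The families took a larger share of the mouse than of the rat library. They held 203978 mouse reads, 1.73% of listed reads (Clopper-Pearson 95% interval 1.73 to 1.74), and 31060 rat reads, 0.212% (0.210 to 0.214). Mouse was 8.18-fold higher, and the log2 ratio of rat over mouse was -3.03, with an exact conditional binomial 95% interval of -3.05 to -3.02. These intervals cover counting error only. For scale, the Gas5 families had a log2 ratio of -5.94, the Snhg1 families -4.58, and the H/ACA families, which guide pseudouridylation, 0.86. SNORD58 held 34.2% of mouse reads and lowers every other mouse share; with it left out of the total the ratio was -3.64. Sperm purity was not tested here, and in such bulk RNA a smaller number of cells of a type cannot be told apart from less RNA per cell.

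The gap depended on read length. Reads of the set longer than 45 nt numbered 133041 in mouse and 9256 in rat, a log2 ratio of -4.16 (-4.19 to -4.13). Reads of up to 45 nt numbered 70937 and 21804, a ratio of -2.02 (-2.04 to -2.0).

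A few families made up most of each set. In mouse, the 3 leading families SNORD41, SNORD18 and SNORD66 held 45.0% of the reads and the leading 10 held 76.0%. In rat, the 3 leading families SNORD15, SNORD97 and SNORD49 held 51.5% and the leading 10 held 86.3%. SNORD57, SNORD97 and SNORD88 were among the 10 leading families of both libraries.

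SNORD41, encoded in the nuclear import receptor gene Tnpo2, led mouse with 39550 reads, or 3363 per 1000000 listed reads (rpm). SNORD18, which lies in an intron of the ribosomal protein gene Rpl4, had 26480 reads (2252 rpm). SNORD66, of the translation initiation factor gene Eif4g1, had 25836 (2197 rpm). No rat read was listed under any of the 3. Next came SNORD52 with 984 rpm, SNORD101 of Rps12 with 964, and SNORD110 and SNORD57 with 922 and 795. SNORD110 and SNORD57 share a host gene, Nop56, which encodes a core protein of the C/D particle itself. SNORD97, known to guide methylation of an elongator methionine tRNA, had 579 rpm, SNORD88 570.4 and SNORD93 559.

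In rat, SNORD15, of the ribosomal protein gene Rps3, led with 6434 reads (439 rpm), followed by SNORD97 with 5180 (354 rpm). SNORD49 had 4375 reads (299 rpm), SNORD57 2534 (173 rpm) and SNORD88 2375 (162 rpm). The remaining leading families were SNORD50 with 104 rpm, SNORD100 with 99, SNORD53/SNORD92 with 79.6, SNORD82 with 67.4 and SNORD96 with 53.2. The leading rat family thus had a lower rpm than each of the 12 leading mouse families.

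**Figure D1:**
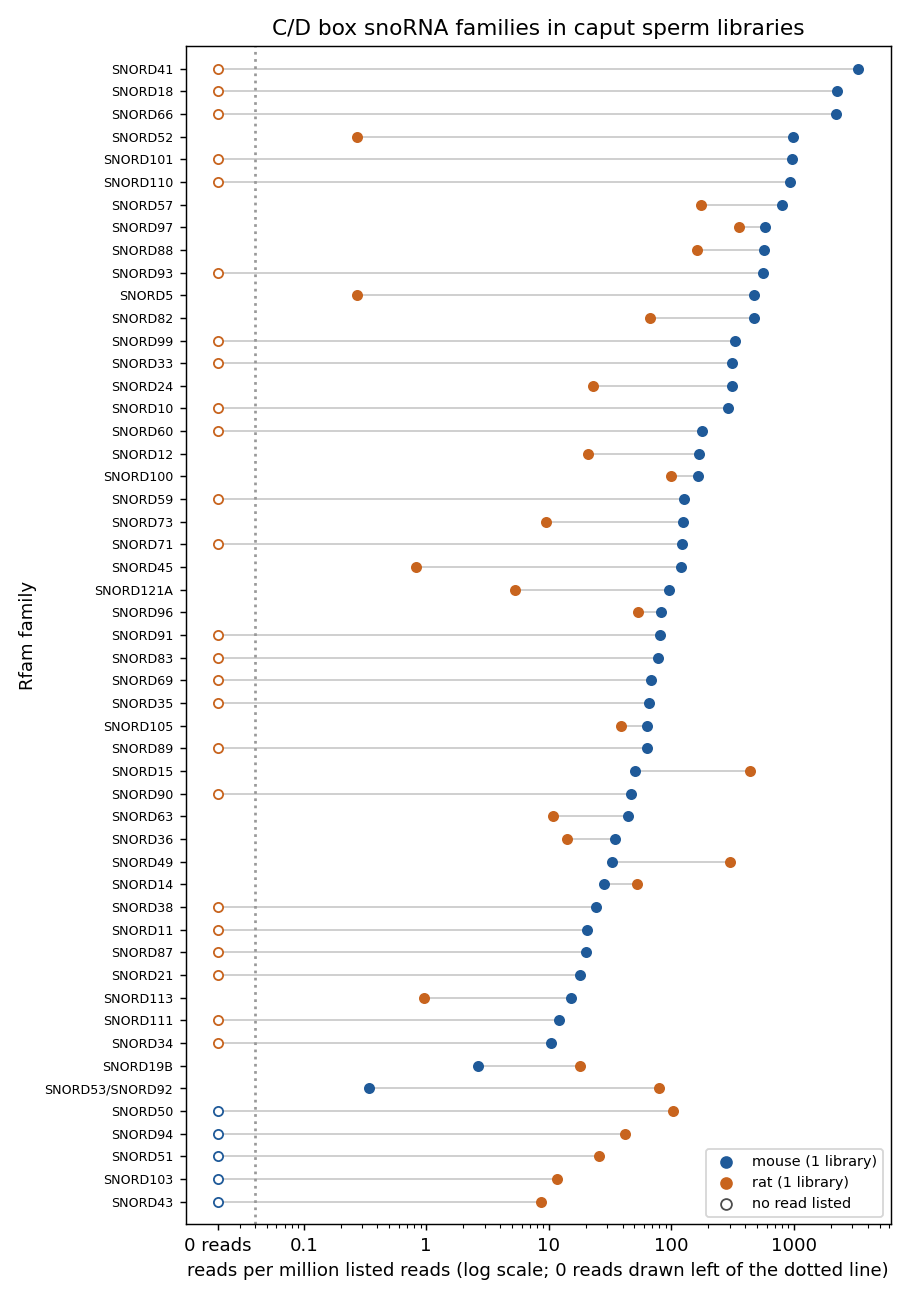
Rpm (log axis) of 51 families, namely the 22 compared and the 29 listed in a single library with 100 reads or more, in the mouse (blue) and rat (orange) library. Open circles mark families with no read listed; 24 open circles belong to rat and 5 to mouse.

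Families listed in both libraries were mostly lower in rat. Of the 22 with reads in both and at least 100 reads in all, 13 (59.1%) were at least 2-fold lower in rat, 4 (18.2%) at least 2-fold higher, and 5 lay within 2-fold. Among all 91 Rfam families compared the same way, 37.4% were at least 2-fold lower and 33.0% at least 2-fold higher. The median log2 ratio was -1.91 in the C/D families and -0.51 over all Rfam families. These are descriptions of 1 library each, and they are shares of all listed reads. Taking the set itself as the total shifts every family's ratio up alike, by the size of the set's -3.03. On that scale, by construction, 4 families were lower and 12 higher, with a median of 1.12. Counted as distinct sequences, 19 families could be compared, of which 6 were lower and 4 higher.

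At the low end, SNORD52 had 11568 mouse reads and 4 rat reads, a ratio of -11.65 (-13.69 to -10.46). SNORD5, of the Taf1d gene, had 5573 and 4, a ratio of -10.59 (-12.64 to -9.40). Both counts in rat lie just above the 3 reads that a count of 0 allows. SNORD45, of Rabggtb, followed with 1395 and 12 reads (-7.12), and SNORD121A with 1124 and 78 (-4.16). All rat reads of SNORD52 and SNORD45 carried a mismatch, as did 54.3% of mouse SNORD45 reads. Neither family thus had a ratio with exact matches alone. SNORD113 had -3.94, SNORD24 of Rpl7a -3.75, SNORD73 of Rps3a1 -3.72, and SNORD12 of the non-coding Zfas1 -2.99. SNORD82, of the nucleolin gene Ncl, had 5540 and 988 reads (-2.80), and SNORD57 had -2.20.

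At the high end, SNORD53/SNORD92, known from the Wdr43 gene, had 1166 rat reads against 4 in mouse, a ratio of 7.70 (6.51 to 9.75). All 4 of those mouse reads carried a mismatch. SNORD49 had 4375 and 388 reads (3.18, 3.03 to 3.33), SNORD15 6434 and 596 (3.11, 2.99 to 3.24), and SNORD19B of the nucleostemin gene Gnl3 265 and 31 (2.76, 2.24 to 3.36). Among the 22 families compared, these 4 were the only ones at least 2-fold higher in rat by name. SNORD49 rested on mismatched matches, since 95.1% of its rat reads carried a mismatch to the entry. With exact matches alone its ratio was -1.14. SNORD14, or U14, which also takes part in the cleavage of the 18S rRNA precursor, had 768 rat and 329 mouse reads (0.90). Of its rat reads, 62.4% carried a mismatch, and its ratio was -0.31 with exact matches alone.

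Nearest to equal were SNORD96, SNORD97, SNORD105 and SNORD100, with ratios from -0.73 to -0.62 by name. Counted as distinct sequences all 4 were higher in rat, between 0.45 and 0.90. Without the leading sequence of each library SNORD97 was at 0.55 and SNORD100 at -1.40, and by a search for its sequence in reads of every class SNORD96 was at -2.51. SNORD88 had -1.81, and SNORD63 had -2.0 by reads and 0.33 by distinct sequences. SNORD36 had -1.29 by name, 0.63 by distinct sequences, -2.28 by sequence search and -5.91 with 14-nt words.

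Many families were listed in a single library. Of 44 with at least 100 mouse reads, 24 (54.5%) had no rat read, whereas 37.4% of all Rfam families with that many mouse reads had none. Of 22 with at least 100 rat reads, 5 (22.7%) had no mouse read, against 15.9% of all Rfam families. Since 0 reads allow a true count of up to 3, SNORD18 was at least 10997-fold higher in mouse by name and SNORD66 at least 10729.9-fold. For SNORD41 the bound by name was at least 16425-fold, but a search by sequence found 29 rat reads, a ratio of -10.71 (-11.31 to -10.21). The next of the mouse-only families were SNORD101 with 11334 reads, SNORD110 with 10839, SNORD93 with 6580, SNORD99 with 3883, SNORD33 with 3679, SNORD10 with 3411 and SNORD60 with 2092. The rat-only families were SNORD50 with 1531 reads, SNORD94, a guide for the U6 spliceosomal RNA, with 611, SNORD51 with 377, SNORD103 with 172 and SNORD43 with 126. The remaining 13 of the 64 families were under these minimums.

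Because a family can be absent when no entry for it was matched, reads of every class were also searched for 16-nt words of the leading sequences. Of 24 families listed only in mouse, 9 had no such rat read, and 10 had more than 3. The highest was SNORD59 with 110 rat reads, under mRNA records and records of unknown type, so that its ratio was -4.28 by sequence. SNORD93 had 74 rat reads by sequence, under piRNA records (-6.78), SNORD18 had 2 and SNORD66 0. A rat sequence that differs from mouse in each stretch of 16 nt would be missed by this search, and sequences outside the deposited lists were not analysed here.

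In mouse, the search found 30754 reads under other entries, against 1764 in rat, and it changed the standing of several families. SNORD50, hosted by the non-coding Snhg5 and listed in rat alone by name, had 7045 mouse reads by sequence against 1525 in rat, a ratio of -2.52 (-2.61 to -2.44). Its mouse reads lay almost all under GenBank snoRNA records, and their gene was Snord50a at chr9:88521529-88521600 in GRCm38, minus strand. The leading forms of both libraries end in the same bases, shown here because the name hid the match.
mouse SNORD50: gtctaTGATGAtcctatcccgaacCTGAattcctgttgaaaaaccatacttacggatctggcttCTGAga
rat SNORD50: attacggatctggcttCTGAga

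The mouse form was 70 nt long with 1588 reads, and 64.1% of these mouse reads exceeded 45 nt. The rat form was 22 nt long with 451 reads, was found 134 times in mouse as well, and 0% of the rat reads exceeded 45 nt. All rat reads under the SNORD50 entry carried a mismatch to it.

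SNORD34, which lies in an intron of Rpl13a at chr7:45126601-45126670, minus strand, had 123 mouse reads by name and 9507 by sequence, against 4 rat reads. The additional mouse reads were listed mainly under GenBank rRNA records (6948) and records of unknown type (2412), and 99.6% of them were longer than 45 nt. Their leading form is the 65-nt sequence below, with 5446 reads.
mouse SNORD34: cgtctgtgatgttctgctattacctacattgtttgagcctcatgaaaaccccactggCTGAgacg

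SNORD82 had a further 6078 mouse reads under records of unknown type, with a ratio of -2.80 by name and -3.90 by sequence. SNORD96, hosted by Rack1, had -0.62 and -2.51, SNORD15 had 3.11 and 1.92, and SNORD14 had 0.90 and -0.73. By sequence 39 families could be compared, of which 29 were at least 2-fold lower in rat and 6 at least 2-fold higher. The whole set had a ratio of -3.23. Among the 6 higher, SNORD94 had 1 mouse read by sequence. SNORD23, at 1.14, was searched with words of an 18-nt rat form that had 2 mismatches. Its 697 rat and 253 mouse reads lay almost all under mRNA records. Some of the 29 lower also rested on few rat reads, such as SNORD101 and SNORD87 with 1 each. The search was not run for the other Rfam families, so the counts of 29 and 6 have no background.

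**Figure D2:**
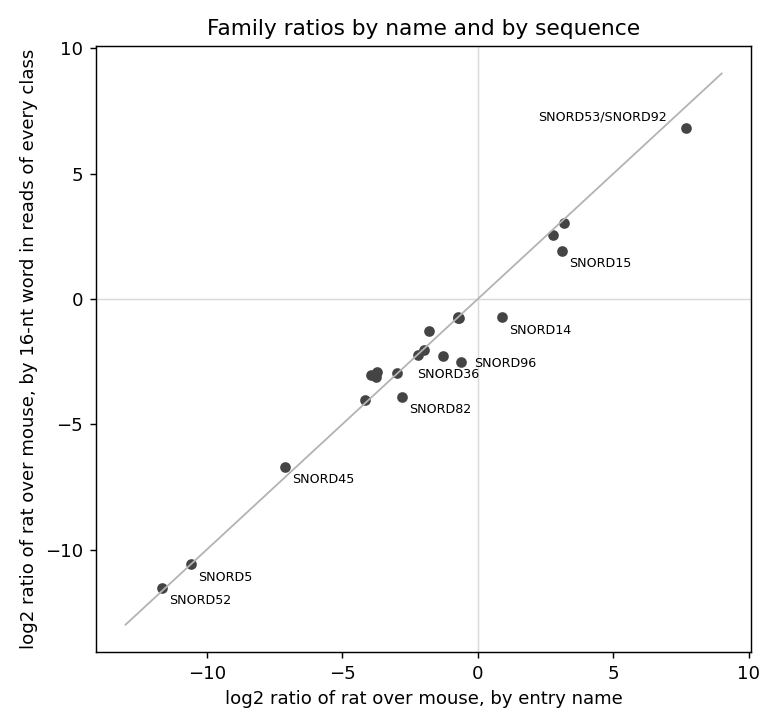
Log2 ratio of rat over mouse for the 22 families compared, by entry name (x axis) and by 16-nt words of the leading sequences in reads of every class (y axis); the grey diagonal marks equal values. SNORD14 crosses zero, and SNORD96, SNORD82 and SNORD15 lie below the diagonal.

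The C/D family reads were long for a fraction selected up to 45 nt. In mouse the median and modal length was 65 nt, and 65.2% of the reads (65.0 to 65.4) were longer than 45 nt, against 9.60% of reads outside all SNORD families. In rat the median was 35.0 nt, the mode 71 nt, and 29.8% (29.3 to 30.3) were longer than 45 nt, against 2.68%. The rat mode was nearly a single form, since the leading SNORD49 sequence gave 3832 of the 3973 reads of 71 nt. Without SNORD49, 19.4% of rat reads (19.0 to 19.9) exceeded 45 nt. The share was also lower in the typical family, with a median over families of at least 100 reads of 24.8% in mouse and 23.6% in rat. Long reads were shared with other C/D families: the Gas5 families had 81.9% in mouse and 45.6% in rat, and the Snhg1 families 63.0% and 9.03%, whereas SNORD58 had 1.33% in mouse. H/ACA families had 8.60% in mouse and 12.9% in rat. Listed reads reached 96 nt, and those of the set reached 88.

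The long mouse reads lay mostly in families with no rat read listed under their name. The 24 families listed in mouse alone held 69.9% of the mouse set, and 78.6% of their reads exceeded 45 nt. In the 22 families compared, the share was 34.2% (33.8 to 34.6) in mouse and 32.2% (31.6 to 32.7) in rat. Without SNORD49 these were 34.4% (34.0 to 34.7) and 21.0% (20.5 to 21.5). Of the 15 families with at least 100 reads in each library, 7 had the higher share of long reads in mouse and 8 in rat.

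**Figure D3:**
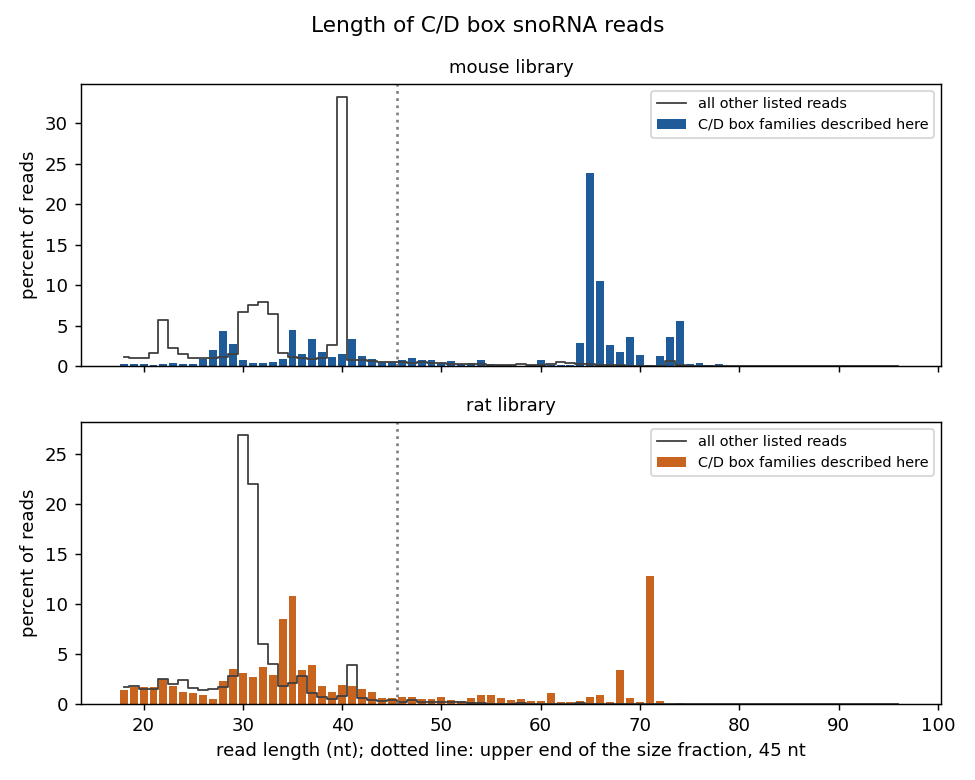
Percent of reads at each length in nt for the C/D box families (bars) and all other listed reads (line), with mouse above and rat below; the dotted line marks 45 nt. The mouse families peak at 65 nt and the rat families at 35 nt and, almost wholly from 1 SNORD49 sequence, at 71 nt, whereas the other reads peak at 40 nt in mouse and 30 nt in rat.

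Single families differed between the libraries in their share of listed reads over 45 nt, in both directions. SNORD82 had 93.5% of its mouse reads and 33.6% of its rat reads over 45 nt, and SNORD73 had 78.8% and 18.0%. In contrast, SNORD49 had 7.47% in mouse and 93.0% in rat, and SNORD88 had 7.05% and 47.4%. The leading entries of these families differed in length as well. For SNORD73 the mouse entry had 68 nt and the rat entry 56, and for SNORD49 the lengths were 62 and 71. There the longer entry went with the larger share. In SNORD82 (65 and 72) and SNORD88 (93 and 90) it went with the smaller share. How far entry length limits these shares was not tested. The shares cover only reads under each family's own entries. They leave out 6078 mouse reads of SNORD82 under records of unknown type and 795 rat reads of SNORD88 under mRNA records. SNORD100, hosted by Rps12, was long in both, with 60.9% in mouse and 81.9% in rat. Short in both were SNORD57 with 5.45% and 0.868% and SNORD97 with 1.13% and 7.08%.

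Leading mouse forms of short families are printed for comparison with the rat forms above. SNORD49 is shown because its 31-nt mouse form contrasts with the 71-nt rat form and ends in the same CTGAct. Between the inner CTGA and the last one, however, these SNORD49 forms differ in many bases. The SNORD49 values of mouse and rat thus compare reads led by different sequences. Whether they come from the same copy of the family was not tested. SNORD57 is shown because both forms are 29 nt long although their sequences differ, SNORD97 because the rat form follows the mouse form closely, and SNORD93 because it is listed by name in mouse alone although 7 rat reads were identical to the form printed.
mouse SNORD49: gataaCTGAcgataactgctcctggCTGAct
mouse SNORD57: tggaaaggatgaacgaacttggcCTGAcc
mouse SNORD97: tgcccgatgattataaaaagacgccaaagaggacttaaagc
mouse SNORD93: tggccaaggatgagaactctaacCTGAc

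The 41-nt SNORD97 form held 65.7% of the mouse family with 4472 reads, and the 35-nt rat form held 17.9% with 925. SNORD97 also shared the most sequences between libraries, with 42 identical sequences that held 5665 mouse and 1858 rat reads. Over the set, 108 sequences were identical in both libraries, which was 1.54% of the distinct mouse and 4.50% of the distinct rat sequences.

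Reads started and stopped at set distances from the boxes. The C box letters occurred in 71.7% of mouse and 59.7% of rat reads of the set, against 3.0% and 0.121% of reads outside all SNORD families. Other C/D families held them too, with 75.1% and 57.0% in the Gas5 families, 81.8% and 80% in the Snhg1 families and 99.8% in mouse SNORD58. In H/ACA families the C box letters were in 0.0406% of mouse and 0.0419% of rat reads. The D box letters, a shorter word, occurred in 92.7% and 56.6% of reads of the set, against 14.4% and 11.8% outside the SNORD families. They set the rat families little apart from H/ACA families, which held them in 13.1% of mouse and 49.3% of rat reads. Other long mouse reads also held the letters of both boxes. Of mouse reads over 45 nt outside the SNORD families, 25.7% held the C box letters and 54.4% the D box letters. Those long reads include snoRNA reads under GenBank records.

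Among reads with fewer than 12 bases before TGATGA, 5 bases preceded it in 62.4% of mouse reads and 6 in 36.7%. In rat the shares were 63.1% and 35.9%. The 5- or 6-base distance was the most common in 24 of 25 mouse families and 15 of 15 rat families with at least 100 such reads. At the other end, counting reads with CTGA followed by fewer than 8 bases, exactly 2 bases followed in 72.0% of mouse and 71.6% of rat reads. In all other listed reads, SNORD58 among them, the distance before TGATGA was 5 or 6 in 99.7% of such mouse and 48.7% of such rat reads, against 99.1% and 99% in the set. The distance after CTGA was 2 or 3 in 63.4% and 59.7% of other reads, against 84.1% and 87.2% in the set. The D box count includes reads that stop at an inner CTGA, such as the SNORD52 form. Both boxes stood near their ends in 62.8% of mouse and 31.8% of rat reads. Exact letters miss boxes with other bases, as in the printed forms of SNORD88, SNORD97 and mouse SNORD57.

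**Figure D4:**
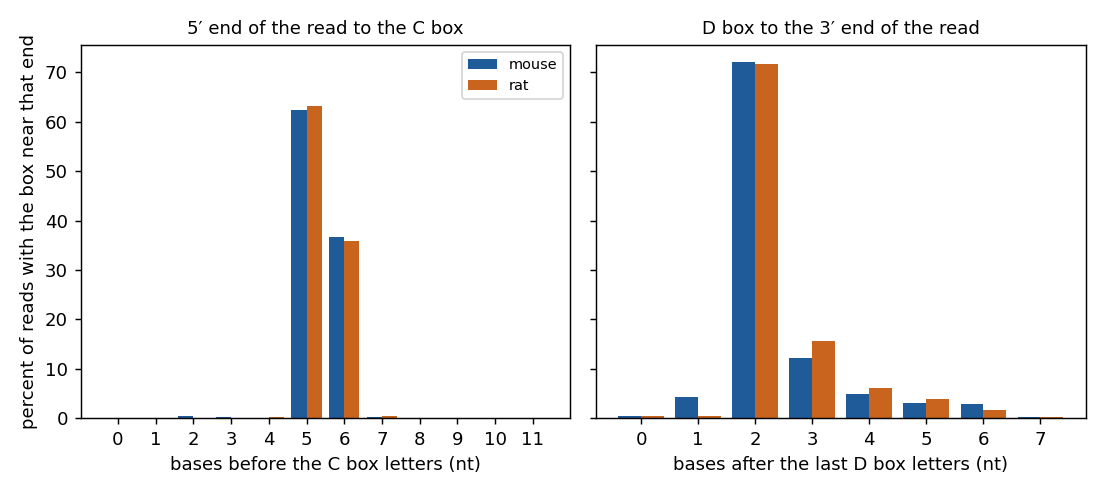
Percent of reads by the number of bases before the C box letters (left) and after the last D box letters (right) in the mouse (blue) and rat (orange) library, among reads with the letters near that end. Reads begin 5 or 6 bases before TGATGA in both libraries, and 2 bases after CTGA is the most common 3′ end.

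Mouse reads could be placed on snoRNA genes of the GENCODE vM21 annotation of GRCm38. Of 203963 plus-strand reads, 203925 were placed with at most 2 mismatches, in 54 of 55 families. Near full-length reads, with both ends within 10 bases of the annotated ends, made up 58.7%, 5′ fragments 27.7%, 3′ fragments 12.7% and internal fragments 0.895%. Of 44 families with at least 100 placed reads, near full-length reads were the most common form in 15, 5′ fragments in 17, 3′ fragments in 10 and internal fragments in 2. The pooled share of 58.7% thus describes the abundant families more than most families.

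Near full-length reads led SNORD18 with 93.1%, from Gm23344 at chr9:64175048-64175115 in an intron of Rpl4. They made up 92.6% of SNORD5 reads (Gm24299, chr9:15314074-15314144, Taf1d) and 89.1% of SNORD121A reads. The leading SNORD121A form was 64 nt long against an 81-nt entry, and 33.2% of the mouse reads covered at least 80% of their entry. SNORD82 had 89.0%, from an intron of Ncl at chr1:86356261-86356330, minus strand. SNORD41 had 87.3%, from Gm25506 at chr8:85050207-85050276, partly within an exon of Tnpo2. SNORD110 had 82.2% (chr2:130275506-130275573, an intron of Nop56) and SNORD66 77.2% (chr16:20684239-20684313, partly within an exon of Eif4g1).

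5′ fragments were 99.9% of SNORD93 reads, from chr5:23852210-23852280 in an intron of the long non-coding RNA 2700038G22Rik. They were 93.2% of SNORD57 reads (chr2:130278016-130278087, Nop56) and 92.5% of SNORD97 reads (chr7:111076060-111076227, minus strand, Eif4g2). They also made up 92.0% of reads of SNORD10, a 144-nt gene in an intron of Eif4a1, and 79.1% of SNORD52 reads, from chr17:34950952-34951017, minus strand, within an exon of the non-coding 1110038B12Rik. SNORD57 and SNORD110 thus share the Nop56 host but differed in form.

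3′ fragments were 99.1% of SNORD96 reads, 97.4% of SNORD49, 96.3% of SNORD63, 94.5% of SNORD45 and 80.8% of SNORD33. These shares, like those above, cover only reads under each family's own entries. The leading mouse entry was 74 nt for SNORD96, against 81 nt of the gene, and 62 nt for SNORD49, against 72. Mouse reads under other records were left out, among them 1864 of SNORD96 under GenBank snoRNA records and 4239 of SNORD52 under GenBank mRNA records. SNORD33 and SNORD34 both lie in Rpl13a, and SNORD34 reads under its own entry were 5′ fragments in 99.2%. By the annotated ends, internal fragments led SNORD90, a 111-nt intronic gene of Rc3h2, with 100%, and SNORD87, of the non-coding Snhg6, with 85.7%. In SNORD90, however, the C box letters stood near the 5′ end in 51.2% of the mouse reads. Its leading 37-nt form had 5 bases before them. Whether these reads start at the mature 5′ end, inside the annotated one, was not tested.

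**Figure D5:**
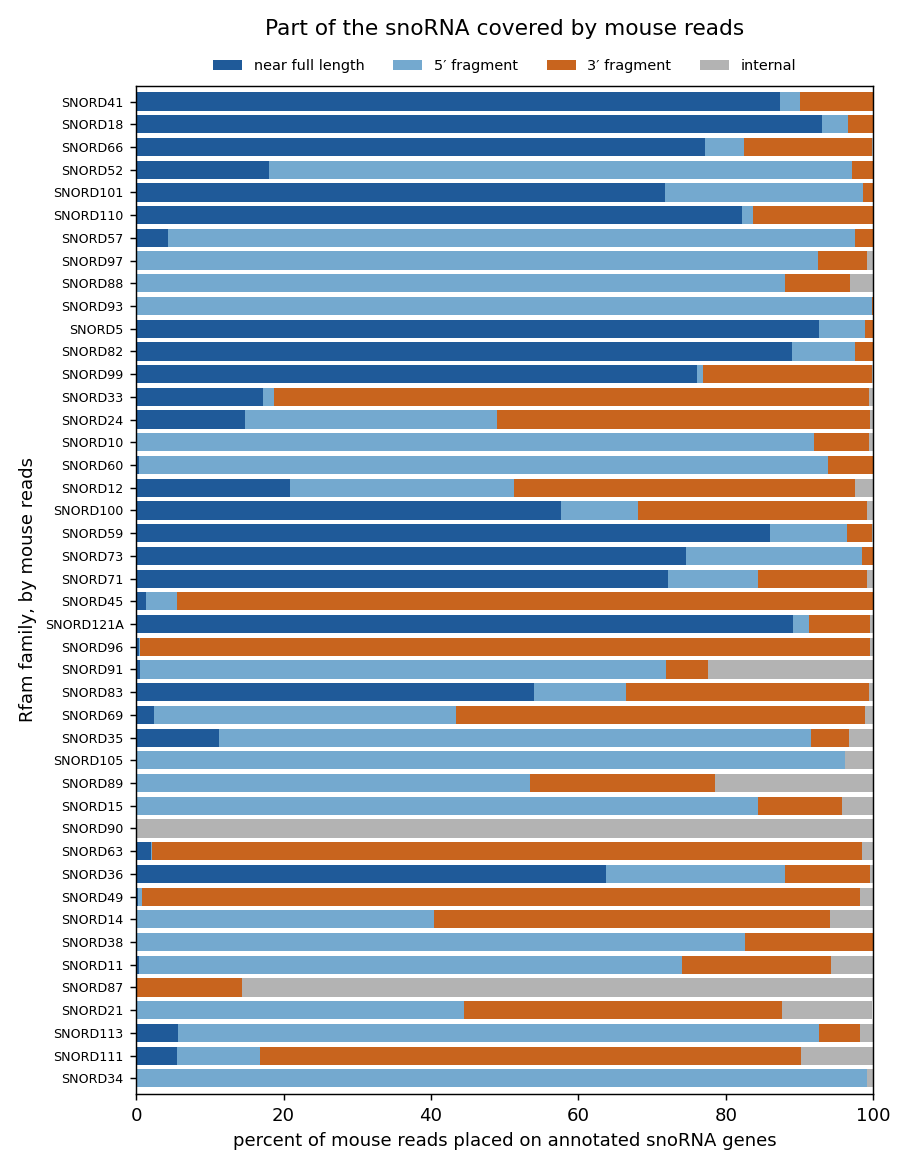
Percent of placed mouse reads that were near full-length, 5′, 3′ or internal fragments for the 44 families with at least 100 placed reads, ordered by mouse reads from top to bottom. Of the 10 families at the top, 5 are led by near full-length reads, and SNORD52, SNORD57, SNORD97, SNORD88 and SNORD93 by 5′ fragments.

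How far reads concentrated on a single form also varied. In families with at least 100 reads, the leading sequence held a median of 31.1% of the mouse reads, from 7.75% in SNORD38 to 83.4% in SNORD18. In rat the median was 23.3%, from 6.98% in SNORD103 to 87.6% in SNORD49. Of mouse reads, 3.0% carried 1 mismatch to the entry and 0.329% carried 2, against 23.8% and 1.56% of rat reads. The rat mismatches were uneven over the 6 leading rat families. Any mismatch was carried by 95.1% of SNORD49, 100% of SNORD50 and 28.2% of SNORD88 reads. In SNORD15, SNORD97 and SNORD57 the shares were 3.09%, 3.36% and 2.49%.

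By host gene, each of the 3 larger lists held ratios of both signs. Of 24 families known from ribosomal protein genes, 15 had reads, summing to 51890 in mouse and 8697 in rat. Among the 5 compared, 3 were at least 2-fold lower in rat (SNORD24, SNORD73 and SNORD36), 1 was higher (SNORD15) and SNORD100 lay within 2-fold. Their median was -1.29, with 8 further families listed in mouse alone and 1 in rat alone. In mouse, 13 of 14 matched genes lay in the host named, and SNORD83 lay in Ddx39b instead of Rpl3.

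Families of translation factor and nucleolar protein genes numbered 17 with reads. Of 6 compared, 2 were lower (SNORD82 and SNORD57), 2 higher (SNORD53/SNORD92 and SNORD19B) and 2 within 2-fold, with a median of -0.67. A further 6 were listed in mouse alone, led by SNORD66 and SNORD110. Of 8 families from non-coding host genes, 3 were compared, of which SNORD52 and SNORD12 were lower and SNORD49 higher, with a median of -2.99. By name, SNORD60, SNORD87 and SNORD99 were listed in mouse alone and SNORD50 in rat alone. By sequence they had 11, 1 and 9 rat reads, and SNORD50 was the higher in mouse, as given above. These lists are small and stand beside 37.4% lower, 33.0% higher and a median of -0.51 over all Rfam families. The translation factor and nucleolar list, with 33.3% each way, lay near that background.

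SnoRNAs of the imprinted clusters, which are known for expression from a single parental allele and for brain-enriched copies, were scarce. SNORD113, of the Rian transcript in the Dlk1-Dio3 region, had 178 mouse reads (15.1 rpm) and 14 rat reads (0.955 rpm). Its leading mouse gene, Gm26922, lies at chr12:109654627-109654698. From the region between Snrpn and Ube3a, SNORD116, whose loss is linked to Prader-Willi syndrome, had 3 and 14 reads. SNORD115, known for pairing with the serotonin receptor 2C transcript, had 1 and 16, and SNORD107 had 1 and 7. The counting intervals of the log2 ratios were 0.06 to 4.35, 1.0 to 9.07 and -0.47 to 7.98, from few reads. The only mouse SNORD115 read and 2 of the 3 mouse SNORD116 reads lay on the minus strand of the entry, and all 4 carried a mismatch. In rat, 81.2% of SNORD115 and 92.9% of SNORD116 reads carried a mismatch. The sequence search assigned 0 rat reads to SNORD115 and 5 to SNORD116. It leaves out reads that match another family equally well, 9 in rat over the whole search. The leading rat SNORD115 form, with 5 reads, holds its own search words. Its 0 thus comes from this rule and shows no absence.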

How the data were processed

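Small RNA of purified caput sperm was sequenced from 1 mouse and 1 rat library. Per the file headers, the deposited values are whole read counts per distinct sequence, each with 1 matched entry (miRBase, Rfam, GenBank or a piRNA record) and at most 2 mismatches. Bowtie 0.12.7 and the builds mm9 and rn5 are named, without a role, in the submitters' processing notes. Trimming and read filters: not given in the sources used here. A closing line with the sum of mouse counts was left out, and sequences on the minus strand were turned. Listed reads summed to 11760708 in mouse and 14652889 in rat, where 1 read is 0.0850 and 0.0682 rpm. Distinct sequences were numbered up to 2253908 and 1269370, of which 40.6% and 51.3% were listed.

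Counts were scaled to rpm of listed reads, adding 0.5 read before the log2 and requiring 100 reads per family. Clopper-Pearson and conditional binomial intervals were computed with scipy 1.17.1. PCR reads without molecular identifiers make them intervals of counting error only. The sequence search used 16-nt words of the leading sequence of each family in each library. Reads that matched another family equally well were left out of it. Coordinates come from matching mouse reads to GENCODE vM21 (GRCm38), whereas the notes name mm9; rat reads were not placed. Methods were tested on simulated data. Families named were the 10 leading in each library, the 10 highest and lowest ratios, the 10 leading families listed in 1 library, and the imprinted clusters; further families were chosen after their values were seen. Members, lists and rules were chosen with earlier results of these data known. The sequence of SNORD63 is not reported here.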

Additional observations from a re-analysis of the deposited data

Results flagged for a closer look

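The comparisons above took no account of strand, and their counts include a few reads on the minus strand of the entries. These exceeded the 3 reads that a count of 0 allows in both libraries. There were 15 such reads in mouse, in 9 distinct sequences, and 6 in rat, in 6 distinct sequences. The largest mouse group was SNORD105 with 5 reads.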

How the results depend on the processing

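No paired analysis was possible because each species has 1 library. Except where the construction of a setting gives it, the cause of a shift was not tested. The set's log2 ratio of -3.03 kept its sign in every alternative run: -3.64 with the total without SNORD58, -1.06 for distinct sequences, -3.41 for exact matches, -3.06 without the most abundant sequence, -3.23 by core sequence, -2.10 for reads of 18 to 45 nt, and, chosen after seeing the data, -3.22 with 14-nt words and -3.16 for reads by name or core. The median family ratio of -1.91 turned to 0.33 for distinct sequences and 1.12 with the set as the total. It was -2.51 without SNORD58, -2.12 for exact matches, -3.13 by core, -2.01 with a minimum of 1000 reads, -1.89 with a pseudocount of 5, -1.26 without each family's leading sequence, -4.07 with 14-nt words and -3.80 by name or core. The number of families compared changed with the setting. The 13 of 22 lower in rat became 6 of 19 (distinct sequences), 29 of 39 (core), 4 of 22 (set as total), 35 of 45 (14-nt words) and 30 of 41 (name or core). The 4 of 22 higher became 2 of 19 (exact matches), 12 of 22 (set as total), 2 of 20 (without leading sequences), 7 of 45 (14-nt words) and 7 of 41 (name or core). The 24 families listed in mouse alone became 9 (core), 12 (minimum of 1000), 5 (14-nt words) and 9 (name or core), and the 5 in rat alone 1, 1, 0 and 2.

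For distinct sequences, exact matches and without leading sequences, reads over 45 nt were 50%, 65.4% and 57.0% in mouse and 27.1%, 21.2% and 19.6% in rat. Reads with the C box letters were 47.2%, 72.0% and 60.5% in mouse and 42.1%, 58% and 49.5% in rat. Reads with the D box letters were 83.4%, 92.8% and 90.1% in mouse and 60.7%, 46.4% and 48.2% in rat. Leaving out SNORD49, chosen after seeing the data, gave 19.4% of rat reads over 45 nt, 53.7% with the C box letters and 49.7% with the D box letters. With the set as the total, which adds the same amount to every family, signs turned for SNORD57 (0.83), SNORD97 (2.32), SNORD88 (1.22), SNORD82 (0.23), SNORD12 (0.04), SNORD100 (2.30), SNORD96 (2.41), SNORD105 (2.31), SNORD63 (1.03) and SNORD36 (1.74). For distinct sequences they turned for SNORD97 (0.90), SNORD100 (0.50), SNORD96 (0.45), SNORD105 (0.67), SNORD63 (0.33) and SNORD36 (0.63). SNORD97 also turned without its leading sequence (0.55), and SNORD49 for exact matches (-1.14). SNORD14 turned for exact matches (-0.31), by core (-0.73), with 14-nt words (-1.10) and by name or core (-0.43). A change of minimum or pseudocount turned no family compared.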
